A study of Vitis rotundifolia with 12 samples.

Results

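In the pedicels of the weakly attached muscadine genotype Ga. 12-3-22 (W), 27 of 26394 gene models had at least 4-fold more reads than in the strongly attached genotype Ga. 6-1-269 (S) at the pea-size stage and again at maturity, with no overlap between the libraries of the genotypes and little change between the stages. A gene model joined this set on its CPM, the count per 1000000 gene counts of the library. All 6 W libraries had to lie above all 6 S libraries. The W/S ratio of group means, each with 0.5 CPM added, had to be at least 4 at both stages. The maturity/pea-size ratio had to lie strictly between 0.5 and 2 in both genotypes. The 27 were 0.120% of the 22431 gene models with at least 1 count in all libraries together. All genotype ratios, stage ratios and non-overlaps given for them are therefore values that chose them, and are described with no test.

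The study asked how the pedicel and its abscission zone differ between muscadines (Vitis rotundifolia) that release the ripe berry easily and those that hold it. Total RNA from pedicels was made into strand-specific libraries and sequenced. The 4 groups were W at pea-size, W at maturity, S at pea-size and S at maturity, with 3 libraries each. Each genotype is a single breeding selection grown at the same Florida site with no treatment beyond freezing of the tissue, so that every difference described here sets 1 selection against 1 other, and attachment strength cannot be told apart from anything else in which the selections differ.

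The pedicel is the stalk that joins the berry to the cluster. At its abscission zone, small cells in a few layers separate from each other when cell wall enzymes are released under the control of ethylene, auxin and peptide signals, as has been worked out mostly in Arabidopsis and tomato. A pedicel also holds xylem, phloem, cortex and epidermis, so that a read count is an average over all of these tissues. The deposited identifiers are not paired with gene names, and none of the gene models was found in the reference table of 27334 muscadine genes. No function is therefore given for any member, and the tissue label could not be checked against marker genes. Members are called by their rank in mean CPM over the 6 W libraries, and 4 are given by identifier. CPM is not divided by transcript length, so the rank orders shares of reads, and levels of different gene models are not compared.

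Gene counts per library ranged from 4705119 to 21971736, and the smallest library (W maturity replicate 1) allows up to 0.638 CPM for a count of 0, against 0.137 CPM in the largest (S maturity replicate 3). Reads outside any gene model made 10.6% to 17.6% of reads in 10 libraries, 21.8% in S maturity replicate 2 and 30.4% in S maturity replicate 1. That last library went against its label. Over 11213 gene models with at least 10 counts in every library, its rank correlation was 0.687 to 0.720 with the other S maturity libraries but 0.811 to 0.847 with the W maturity libraries, 0.780 to 0.848 with the W pea-size libraries and 0.783 to 0.790 with the S pea-size libraries. It was thus closer to each of the other groups than to its own. The correlations describe libraries of unequal depth over the same gene models, and have no p-value. The library was kept under its label, and results that rest on it are also given without it.

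Few gene models were past the ratio at both stages. A ratio of at least 4 was found for 572 gene models at pea-size and for 524 at maturity, but for 117 at both. Of the 359 gene models (1.6%) with all W libraries above all S libraries, 56 also met the ratio at both stages, and 27 of those met the stage condition. Among the 29 left out by it, the change over 2-fold or more was in W for 19 (10 rose and 9 fell) and in S for 17 (10 rose and 7 fell). A further 29 gene models met every ratio but had overlapping libraries. The smaller of the 2 W/S ratios was 4.08 for the member nearest the threshold and 3.97 for the nearest gene model outside. For the stage condition, members lay between 0.622 and 1.89 in W and between 0.542 and 1.87 in S, and the nearest outside lay at 0.457 and 2.50 in W and at 0.406 and 2.40 in S. The same rule with the genotypes exchanged kept 98 gene models, against a background of 549 (2.45%) with all S libraries above all W libraries.

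Across the 27, the W/S ratio ran from 4.59 to 78.9 at pea-size with a median of 10.95, and from 4.08 to 50.6 at maturity with a median of 10.1. Over all gene models with counts, the medians were 0.914 and 0.936. Both stages gave a ratio of at least 10 in 12 members and at least 20 in 6, whereas 13 members stayed under 8 at one or the other stage. The larger ratio was that at pea-size in 17 members and that at maturity in 10. With nothing added to the group means, and with S groups at 0 counts put at the limit of 3 counts over the group, the medians were 26.7 at pea-size (5 members at that limit) and 20.4 at maturity (2 members at it). The ratios with 0.5 CPM added are thus the lower of the 2 scales, most of all for members with few S reads.

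**Figure D1:**
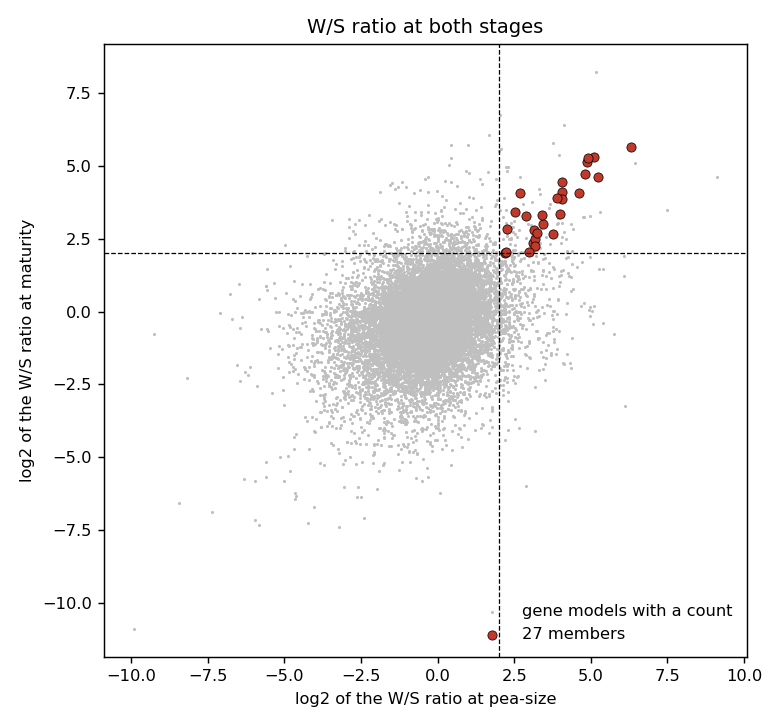
W/S ratio at pea-size (x axis, log2) against that at maturity (y axis, log2) for gene models with at least 1 count, with the 27 members marked. The members lie past 4-fold on both axes, where 117 gene models lie in all, from 4.59 to 78.9 at pea-size and from 4.08 to 50.6 at maturity.

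Together the members took 0.143% to 0.213% of gene counts in the W libraries and 0.0112% to 0.0291% in the S libraries. In summed mean CPM this was 1693 in W and 182 in S. The sum was carried by a few members: the 4 with the highest W means held 67.7% of it in W and 80.7% in S, and the first alone 30.3% in W. The median member had 13.1 to 27.2 CPM in the W libraries and 0.307 to 1.28 CPM in the S libraries. No member was at 0 counts in any W library, and 4 to 12 of the 27 were at 0 in each S library. In bulk pedicel RNA, fewer cells of a type that uses a gene and less RNA per cell cannot be told apart.

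**Figure D2:**
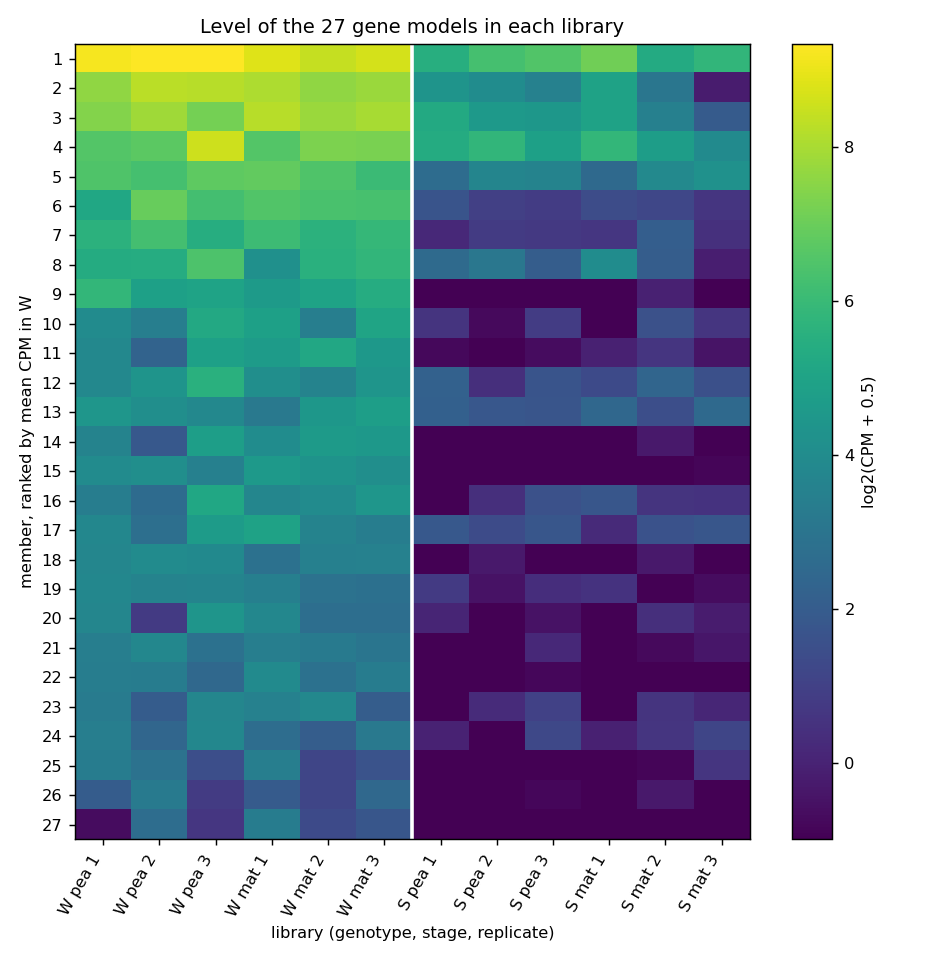
Level of each member in each library as log2(CPM + 0.5), with members in rows by mean CPM in W and libraries in columns, W left of the white line and S right of it. The first 4 rows have reads in every S library, but rank 2 comes down to 0.364 CPM in S maturity replicate 3. Many of the lower rows drop to the colour of 0 counts in at least 1 S library. Others do not, such as rank 5 with 5.31 to 18.2 CPM in S.

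A mean of at least 100 CPM in W was found for 4 members, and all of these also had reads in every S library. evm.model.chr18.691 on chromosome 18 (rank 1) had 586, 637 and 648 CPM in the W pea-size libraries and 459.5, 344 and 403 CPM in the W maturity libraries. In S it had 44.2, 76.8 and 92.0 CPM at pea-size and 136, 39.8 and 55.9 CPM at maturity. Every W library was at least 2.52 times the highest S library, and that highest library was S maturity replicate 1. Group means were 624 ± 33.1 CPM in W against 71.0 ± 24.4 CPM in S at pea-size, and 402 ± 57.8 against 77.4 ± 51.7 CPM at maturity (SD, n = 3 each). The ratio was 8.73 at pea-size and 5.17 at maturity, or 8.32 at maturity without S maturity replicate 1. Its W maturity libraries all lay below its W pea-size libraries, a fall to 0.645 of the pea-size level, whereas the S libraries of the stages overlapped.

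evm.model.chr8.1592 on chromosome 8 (rank 3) was the member with the largest fall between the stages in S. It had 172, 233 and 144 CPM in the W pea-size libraries and 304, 219 and 252 CPM in the W maturity libraries. The S libraries held 38.3, 23.9 and 21.8 CPM at pea-size and 30.5, 10.99 and 3.37 CPM at maturity. The S stages overlapped through S maturity replicate 1 alone, and the other S maturity libraries lay below every S pea-size library. The maturity level in S was 0.542 of that at pea-size, and 0.269 without S maturity replicate 1. Means were 183 ± 45.9 against 28.01 ± 8.97 CPM at pea-size and 259 ± 42.7 against 14.9 ± 14.0 CPM at maturity (SD, n = 3 each), which gave ratios of 6.43 and 16.8. Without S maturity replicate 1 the maturity ratio was 33.7, and the member no longer met the stage condition in S.

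The other members of this level class were on chromosome 13 (rank 2) and chromosome 17 (rank 4). Rank 2 had 196, 307 and 300.2 CPM in W at pea-size and 268, 198 and 221 CPM in W at maturity. Its S values were 19.99, 15.6 and 11.2 CPM at pea-size and 30.3, 7.94 and 0.364 CPM at maturity, so that its S maturity libraries covered, in proportion, a far wider range than its other groups, from S maturity replicate 3 up to S maturity replicate 1. Its ratio was 16.6 at pea-size and 17.2 at maturity, and 49.4 at maturity without S maturity replicate 1. Rank 4 had 96.1, 107 and 376 CPM in W at pea-size and 95.6, 155 and 154 CPM in W at maturity, against 40.7, 55.0 and 29.1 CPM and 56.7, 26.5 and 15.1 CPM in S. A single library, W pea-size replicate 3, stood far above the rest. The pea-size ratio of rank 4 was 4.59 with it and 2.42 without it, and its maturity ratio of 4.08 was the smallest of the set, or 6.38 without S maturity replicate 1.

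**Figure D3:**
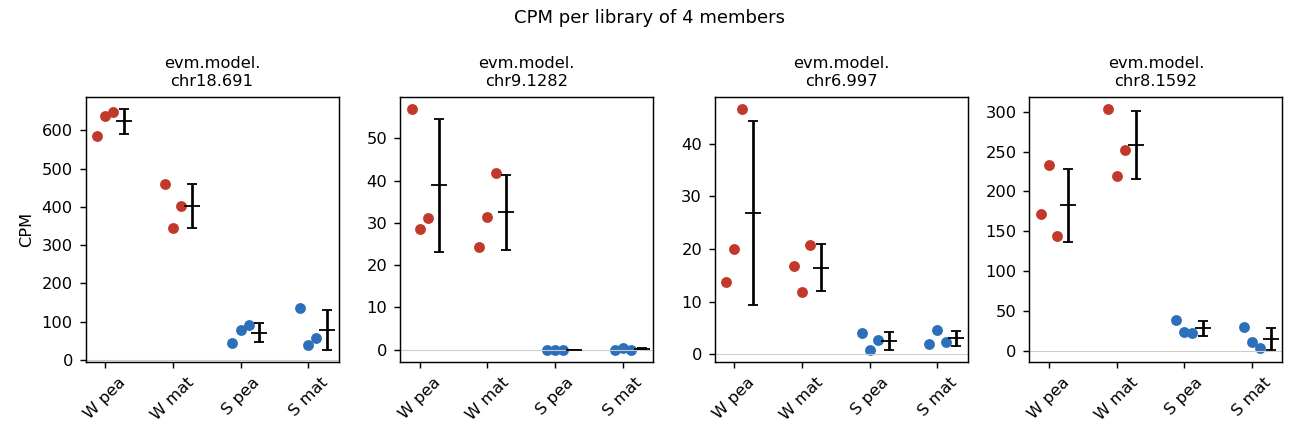
CPM of the 4 members given by identifier, with 1 point per library and 1 panel per member, for W and S at pea-size and at maturity. The W points lie above the S points in every panel, and evm.model.chr9.1282 has 5 of 6 S libraries at 0.

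The 8 members with a mean of 20 to 100 CPM in W had median ratios of 22.3 at pea-size and 19.6 at maturity with 0.5 CPM added, or of 35.0 and 25.6 with nothing added and an S group at 0 put at its limit. evm.model.chr9.1282 on chromosome 9 (rank 9) had the largest smaller ratio of all 27 with 0.5 CPM added. It had 57.0, 28.7 and 31.1 CPM in W at pea-size and 24.2, 31.4 and 41.9 CPM in W at maturity. In S the only reads were 9 counts in S maturity replicate 2, which made 0.458 CPM there, and the other S libraries were at 0. Means were 38.9 ± 15.7 CPM in W at pea-size and 32.5 ± 8.89 CPM in W at maturity, against 0 and 0.153 ± 0.264 CPM in S (SD, n = 3 each). With 0.5 CPM added the ratios were 78.9 and 50.6. At pea-size, where S had no count, the CPM of mapped reads in W was at least 470.5-fold higher, taking 3 counts over the S group as the limit. Pooled over the 6 libraries of each genotype, 1945 counts in W against 9 in S gave a ratio of CPM of 355, with a 95% exact interval of 187 to 778 that covers counting error only.

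evm.model.chr6.997 on chromosome 6 (rank 12) was at the other end of this class, with the largest fall between the stages in W. Its W values were 13.8, 19.9 and 46.6 CPM at pea-size and 16.8, 11.9 and 20.7 CPM at maturity. The S libraries had 4.11, 0.818 and 2.701 CPM at pea-size and 1.99, 4.68 and 2.41 CPM at maturity. The W stages overlapped, and the fall to 0.622 was carried by W pea-size replicate 3. With means of 26.8 ± 17.5 against 2.54 ± 1.65 CPM at pea-size and 16.5 ± 4.41 against 3.03 ± 1.45 CPM at maturity (SD, n = 3 each), its ratios were 8.96 and 4.81. Without that library the pea-size ratio was 5.70.

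Of the remaining 6 members between 20 and 100 CPM, ranks 6 (chromosome 10) and 7 (chromosome 18) had ratios over 20 at both stages with reads in every S library. Rank 6 had 35.7 to 124 CPM in W and 1.001 to 2.74 CPM in S, with ratios of 34.2 and 39.5. Rank 7 had 42.7 to 75.6 CPM in W and 0.645 to 3.82 CPM in S, with ratios of 37.6 and 24.6, the second being 40.7 without S maturity replicate 2. Those genotypes stood far apart: the lowest W library was 11.2 and 10.01 times the highest S library after adding 0.5 CPM. Rank 8 on chromosome 12 was the narrowest of the whole set. Its lowest W library (W maturity replicate 1, 17.6 CPM) was just above its highest S library (S maturity replicate 1, 15.8 CPM), and the other S libraries had 0.410 to 8.18 CPM. The maturity ratio of rank 8 was 5.71, and 16.1 without S maturity replicate 1. Rank 10 on chromosome 20 had 10.2 to 37.0 CPM in W and 0 to 2.49 CPM in S. Its maturity ratio of 14.5 became 24.2 without S maturity replicate 2, and its pea-size ratio of 16.7 became 10.4 without W pea-size replicate 3.

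The remaining 15 members had a mean under 20 CPM in W, 2 of them under 5 CPM. Their median ratios were 10.95 at pea-size and 9.90 at maturity with 0.5 CPM added. They were 44.5 and 22.2 with nothing added and S groups at 0 put at their limit. The order of the level classes thus depended on the added value at both stages. In this class their mean CPM in S ran from 0 to 3.73. They differed widely in their S reads. Ranks 13, 16 and 17, on chromosomes 3, 6 and 2, kept 113 to 333 counts over the 6 S libraries. By contrast, ranks 15 and 22, both on chromosome 10, had 1 S count each against 851 and 453 W counts. Rank 15 had 10.7 to 23.0 CPM in W, and the pooled ratio was 1399 with an exact interval of 250.5 to 55329. For rank 22, with 5.06 to 14.9 CPM in W, it was 745 with an interval of 133 to 29483. The intervals are this wide because a single read carries the S value. Rank 27 on chromosome 13 was the only member with no S count, against 154 W counts, and was at least 84.4-fold higher in W, taking 3 counts over the 6 S libraries as the limit. By stage, with 3 counts over the 3 S libraries, it was at least 28.6-fold higher at pea-size and 85.4-fold at maturity. Even so, its W libraries ran from 0.139 to 9.78 CPM, the lowest of them resting on 1 count, and its pea-size ratio of 5.72 became 2.18 without W pea-size replicate 2. Its maturity ratio of 10.8 became 5.95 without W maturity replicate 1.

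The other low members fell between these cases. Rank 14 on chromosome 3 had 3.10 to 27.2 CPM in W, and its only 6 S counts came from S maturity replicate 2. Its pea-size ratio of 29.1 became 15.9 without W pea-size replicate 3, its highest W library. Rank 18 on chromosome 8 likewise had few S reads, 9 counts in S pea-size replicate 2 and S maturity replicate 2, and ratios of 24.5 and 16.8. The pattern of S reads in a single library or a pair of them was shared by rank 26 on chromosome 12, with 7 S counts, 1.23 to 8.72 CPM in W and a pea-size ratio of 9.50 that became 5.45 without W pea-size replicate 2. It also held for rank 25 on chromosome 19, where 22 of 23 S counts were in S maturity replicate 3, and whose maturity ratio of 6.29 became 3.15 without W maturity replicate 1, or 10.2 if S maturity replicate 3 was left out. Rank 21 on chromosome 6 had 6.82 to 13.1 CPM in W and 0 to 0.640 CPM in S, with nearly equal ratios of 14.8 and 15.05.

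In ranks 13, 16, 17, 23 and 24, the lowest W library was 1.54 to 2.03 times the highest S library after adding 0.5 CPM. Rank 13 on chromosome 3 had 8.50 to 27.3 CPM in W and 2.29 to 5.33 CPM in S, with ratios of 4.72 and 4.19 near the threshold. Rank 16 had 5.61 to 35.5 CPM in W and 0 to 2.94 CPM in S, and its pea-size ratio of 10.95 was 5.19 without W pea-size replicate 3, or 19.3 if S pea-size replicate 3 was left out. Those libraries were, at pea-size, the highest of their genotypes. Rank 17 had 6.35 to 30.4 CPM in W and 0.664 to 3.14 CPM in S, and its maturity ratio of 7.09 was 4.52 without W maturity replicate 1. Rank 23 on chromosome 14 had 3.55 to 13.7 CPM in W against 0 to 1.49 CPM in S. Rank 24 on chromosome 12 had 3.65 to 13.4 CPM in W against 0 to 1.85 CPM in S, and its pea-size ratio of 7.82 was 13.5 without S pea-size replicate 3. Rank 20 on chromosome 16 came close to overlapping, as its lowest W library (W pea-size replicate 2) had 1.18 CPM and its highest S library 0.814 CPM, while its other W libraries had 6.09 to 20.6 CPM. Its pea-size ratio of 15.9 became 9.87 without W pea-size replicate 3. The remaining one, rank 19, had 6.58 to 13.4 CPM in W and 0 to 1.21 CPM in S, and its maturity ratio of 9.90 was 15.02 without S maturity replicate 1.

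Counted over all members, S held no count in 1, 1 to 3 counts in 2, 4 to 10 in 4, 11 to 100 in 7 and over 100 in 13, of which 5 had 1042 or more. Thus 11.1% of the members had at most 3 S counts. In the set with the genotypes exchanged, 23 of 98 (23.5%) had at most 3 W counts, but the W libraries were mostly shallower, with group medians of 7188880 and 7392548 gene counts against 12404212 and 19650450 in S. A count was found in every S library for 11 members, and at least 10 counts in every W library for 25. As a share of reads, not divided by transcript length, the median member lay at percentile 62.6 of mean CPM in W among gene models with counts. In S it lay at percentile 21.3. The rule had asked for lower values in S than in W, so this difference follows in part from the choice.

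**Figure D4:**
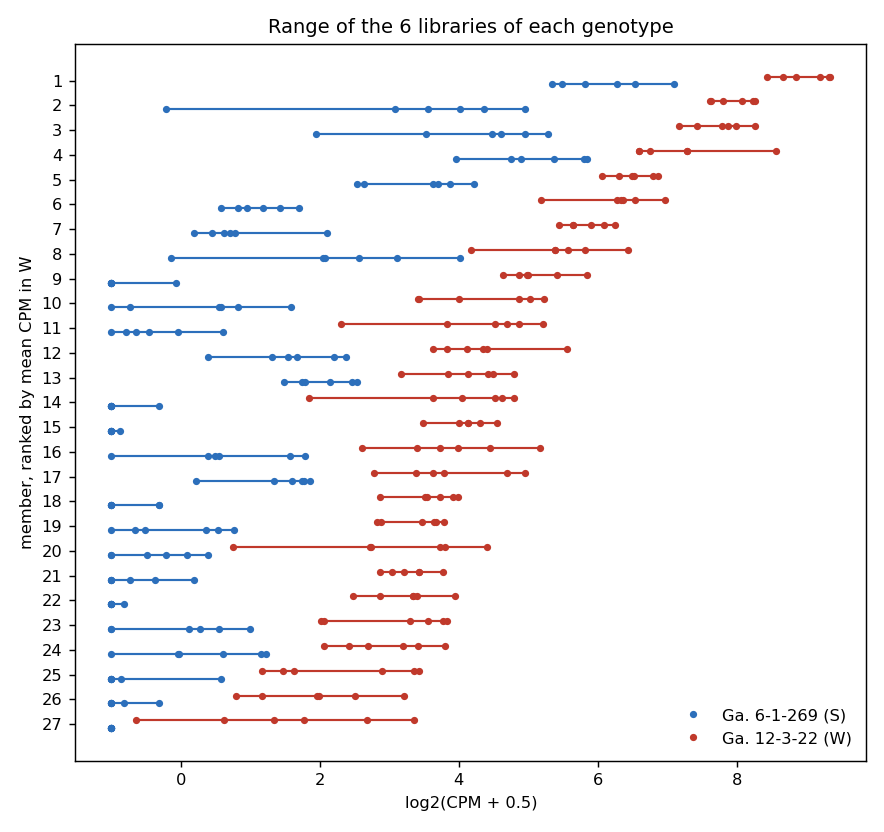
Range of the 6 W and the 6 S libraries for each member, as log2(CPM + 0.5) on the x axis, with members on the y axis by mean CPM in W. The ranges never overlap, but the gap is narrow for rank 8 (17.6 against 15.8 CPM) and wide for rank 9 (24.2 against 0.458 CPM).

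The gap between the genotypes covered a wider range, in proportion, than the ratios of means. The rule had cut those ratios off at 4 but asked of the gap only that the libraries not overlap. This comparison therefore follows in part from the choice. The lowest W library was 1.12 to 25.8 times the highest S library after adding 0.5 CPM, with a median of 3.25. In 10 members the gap was at least 4-fold and in 9 under 2-fold. Of the W groups, that at pea-size was the more uneven. The coefficient of variation of a member over its 3 replicates had a median of 46.1% in W at pea-size and 27.3% in W at maturity, whereas gene models with a group mean at or above the lowest member's W mean had medians of 34.2% and 27.6%. W pea-size replicate 3, the deepest W library, was the highest W library of 9 members, and W pea-size replicate 2 was the lowest of 7.

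The stage condition left room for moderate changes, and these had no common direction. The maturity/pea-size ratio had a median of 0.967 in W and 1.13 in S. In W it was above 1 in 12 members and below 1 in 15, and in S above 1 in 16 and below 1 in 10. It went the same way in both genotypes in 11 members, up in 6 and down in 5. The opposite was seen in 15, of which 10 were lower at maturity in W and higher in S. Rank 27, with no S reads, had an S ratio of exactly 1. This split rests in part on S maturity replicate 1. Without it, the S ratio came below 1 in ranks 1 (0.676), 8 (0.401) and 16 (0.898). It came above 1 in ranks 17 (1.002), 18 (1.08) and 23 (1.03). The libraries of the stages did not overlap in W for 3 members, all lower at maturity (6.18% of gene models with counts), and for none in the other direction (6.32%). Besides rank 1, these were rank 18 on chromosome 8, with 12.8 to 15.4 CPM at pea-size and 6.801 to 11.1 CPM at maturity, and rank 19 on chromosome 4, with 12.0 to 13.4 CPM and 6.58 to 10.6 CPM. In S only rank 11 on chromosome 3 did not overlap, higher at maturity (9.83%), from 0 to 0.142 CPM at pea-size to 0.228 to 1.02 CPM at maturity, and none was lower (18.8%). That none was lower in S rests on S maturity replicate 1. With it left out, the S maturity libraries of ranks 2, 3, 4, 8 and 19 lay below every S pea-size library. Those of ranks 5 and 25, besides rank 11, then lay above every one. The share over all gene models is not given for that case. With all libraries, the share of members with separate stages was 3 of 27 in W and 1 of 27 in S. It was described and not tested, since the rule had removed larger stage changes.

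Single libraries set the size of many ratios. With each library left out in turn, 18 members had a ratio that moved by over 1.5 times and 7 had one that came below 4. Leaving out W pea-size replicate 3 lowered the pea-size ratio of 7 members that far, and leaving out S maturity replicate 1 raised the maturity ratio of 6 (ranks 1, 2, 3, 4, 8 and 19). Without S maturity replicate 1 the maturity ratios of the 27 had a median of 11.8 and ran from 3.52 to 49.4. The rule itself then kept 40 gene models, of which 21 were among the 27. Of the 6 members lost, 4 had a maturity level in S of 0.5 or less of that at pea-size: ranks 2 (0.289), 3 (0.269), 8 (0.401) and 19 (0.461). All of these were among the 6 whose maturity ratio went up. Rank 25 came to 2.05 between the stages in S, and the maturity ratio of rank 24 dropped to 3.52. The 19 that came in had that library above at least 1 W library in 14 cases and above the mean of the 6 W libraries in 9. The median ratios of the 40 were 9.43 at pea-size and 7.77 at maturity.

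Applied to 11 libraries at a time, the rule kept 25 to 43 gene models, including 21 to 27 of the 27. The largest set, of 43, came without W maturity replicate 1, the shallowest library. Of the members, 14 were kept in all 12 such sets, 4 in 11, 4 in 10 and 5 in fewer. The library left out offers a value that the rule had not used. A left-out library that lay on its own genotype's side of every library of the other genotype was found for 65% to 100% of the gene models chosen, with a median of 93.2% over the 12 libraries. Over all gene models with counts the share was 9.23% to 17.5%. Other gene models that had no overlap in the same 11 libraries gave 61.0% to 93.3%, with a median of 83.3%, and the chosen ones had the higher share in 11 of 12 libraries, S maturity replicate 2 being the exception (86.7% against 92.0%). The chosen gene models had met the 4-fold ratio at both stages in those 11 libraries, whereas the others had failed the ratio or the stage condition. The left-out value was also set against libraries that the rule had used. A higher share among the chosen can therefore follow from the choice, and nothing is read from it. The 12 shares rest on the same libraries and have no test.

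**Figure D5:**
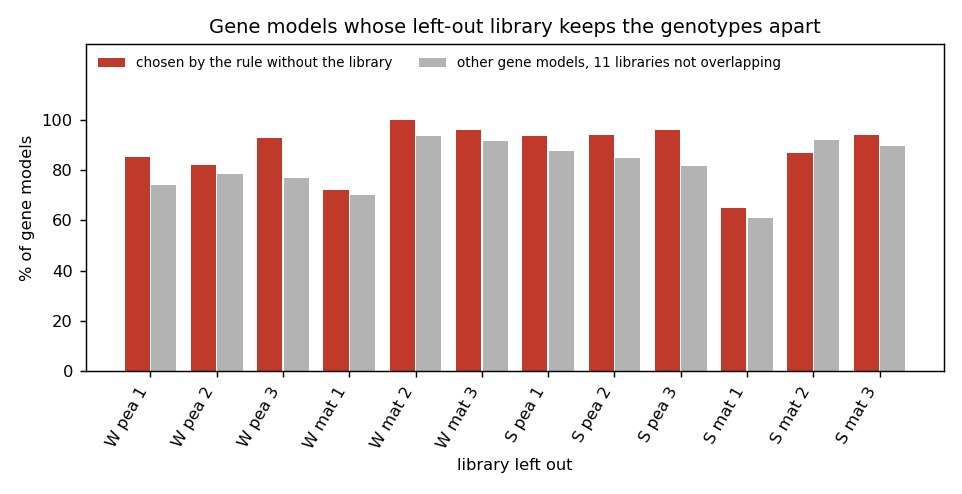
Share of gene models (y axis, %) whose value in the library left out (x axis) lies on its own genotype's side of every library of the other genotype. Bars are for gene models chosen by the rule in the other 11 libraries and for others with no overlap in those 11. The lowest chosen share is that of S maturity replicate 1, 65%, and the highest is 100%.

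The lowest shares belonged to S maturity replicate 1, with 26 of 40 gene models (65%), and W maturity replicate 1, with 31 of 43 (72.1%). Measured as nearer in CPM to its own genotype's mean, S maturity replicate 1 was on its own side for 23 of 40 gene models (57.5%), and the other 11 libraries were so for 67.4% to 100%.

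Across all genes, 18439 gene models were tested with edgeR's quasi-likelihood test (adjusted p of at most 0.05 by Benjamini-Hochberg over all tested, and a log2 fold change of at least 1 in size). It called 425 (2.3%) higher in W at pea-size, 574 (3.11%) at maturity and 99 (0.537%) at both. In the other direction it called 493 (2.67%) higher in S at pea-size and 642 (3.48%) at maturity. All 27 members were tested, and 21 were called at pea-size, 19 at maturity and 17 at both. The rule had used this contrast, so the calls describe the set and nothing is read from them. The fitted log2 fold changes of the members had medians of 4.82 at pea-size and 4.38 at maturity, against -0.02 and -0.09 over all tested, and their standard errors ran from 0.41 to 2.21. Calls changed with 1 library left out, which also leaves a group fewer replicates. Leaving out 1 of the S pea-size libraries left 10 or 11 members called at pea-size. Calls in either direction over all gene models then fell from 918 to between 296 and 380. Leaving out W pea-size replicate 1 left 13 members (564 gene models), and leaving out S maturity replicate 2 left 12 at maturity (560 against 1216). Without S maturity replicate 1, members called rose to 27 at pea-size and 23 at maturity (1741 and 3528 gene models). What changed the calls was not tested.

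The members were spread over 15 of the 20 chromosomes, with 4 on chromosome 3 and a single one on each of 8 chromosomes. Position was not used by the rule, and is known here only as the serial number of a gene model along its chromosome. Ranks 5 and 11 on chromosome 3 had consecutive numbers. Rank 5 had 66.4 to 116 CPM in W and 5.31 to 18.2 CPM in S, with ratios of 8.85 and 7.04. Rank 11 had 4.43 to 36.7 CPM in W and 0 to 1.02 CPM in S, with ratios of 27.98 and 26.7, the first being 16.7 without W pea-size replicate 3. Between the stages, rank 5 came to 0.984 of its pea-size level in W and 1.24 in S, and rank 11 to 1.78 in W, with overlapping libraries, and 1.87 in S. They were the only members within 5 serial numbers of another member (2 of 27, 7.41%), whereas 0.531% of gene models with counts lay that near to a member. In the set with the genotypes exchanged, 2 of 98 (2.04%) had another of that set as near. Whether the neighbours share reads could not be examined without their sequences.

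The gene models listed before and after each member in serial order were then described, a choice made after the values had been seen. Of 42 such neighbours with counts that were not members, 8 (19.0%) had a W/S ratio of at least 2 at both stages, against 2.31% of all gene models with counts, and 2 (4.76%) had at least 4, against 0.522%. A ratio of 0.5 or less at both stages was found in 4 of the 42 (9.52%), against 7.503%. Serial numbers have gaps, so that 26 of the 42 were 1 number away from a member and the rest up to 5. Of those 26, 6 (23.1%) were higher in W. Of the 8 neighbours higher in W, 5 had a mean under 5 CPM in W, and only 2 had no overlap between the genotypes. Both of those flanked evm.model.chr6.997, one on either side of it. They had means of 29.1 CPM in W against 10.2 CPM in S, and of 1.63 CPM in W against 0.0152 CPM in S. Among 175 neighbours of the set with the genotypes exchanged, 19 (10.9%) were higher in S by the same measure, against 7.503% of all.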

How the data were processed

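RNA from muscadine pedicels of 2 genotypes at 2 stages was sequenced in 12 libraries, 3 per group. The authors trimmed the reads, mapped them with STAR to the 'Noble' genome, removed likely PCR duplicates and used HTSeq to count, for each gene model, the reads that mapped to a single place. The deposited counts are whole reads, not normalised, for 26394 gene models and 5 summary entries, which were left out of library totals. Because only uniquely mapped reads were counted, near-identical gene copies are undercounted, and which members this touches could not be examined. 'Noble' is neither of the 2 selections. Whether reads of W and of S map equally well to its gene models was not tested. A low or absent S count is therefore a count of mapped reads only. Groups came from the genotype and developmental stage labels. The label of tissue type reads mature for all 12 libraries and was not used. The study calls the replicates biological, and whether they came from separate vines is not given in the sources used here, so spreads and p-values cover these libraries only.

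The members and lists were chosen with earlier results of these data known. CPM used library totals without summary entries. The rule, applied in Python 3.11.15 (pandas 2.3.3, NumPy 2.4.6, SciPy 1.17.1, matplotlib 3.10.9), chose members. edgeR 4.0.16 (R 4.3.3, limma 3.58.1) fitted 1 mean per group with TMM scaling after filterByExpr (minimum count 10, minimum total 15), robust quasi-likelihood tests and Benjamini-Hochberg adjustment. Its code was tested on simulated counts with 200 changed gene models. Limits of 0 take 3 counts, and exact binomial intervals are at 95%. Both cover counting error only.

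Identifiers were named by a rule: the member with the highest mean CPM in W, that with the largest smaller ratio, and, at 5 CPM or more in W, those with the largest fall between the stages in W and in S. Pathway and marker lists needed gene names and were not used. Alternatives were other scalings, added values, ratio limits, group medians, filters, DESeq2 1.42.0, a replicate block and leaving out each library. Every 2 libraries of a group differed by more than counting noise, with a chi-square of at least 12.02 per degree of freedom.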

Additional observations from a re-analysis of the deposited data

How the results depend on the processing

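The set of 27 became 96 gene models at a ratio of 2, 14 at a ratio of 8, 56 with overlap allowed and 56 with no stage condition, and 25 to 43 with 1 library left out. Other scalings moved it little: 28 gene models with TMM (26 of the 27 kept) and 26 with DESeq2 size factors (25 kept). TMM moved the median log2 W/S ratio of 11213 gene models at pea-size from -0.03 to 0.12. The set with the genotypes exchanged, 98, became 258, 34, 178 with no stage condition and 37 with a mean of at least 1 CPM in W, and 87 to 143 with 1 library left out. The members' median ratio at pea-size was 23.8 with 0.1 CPM added and 8.59 with 1 CPM, and 10.4 to 13.6 with 1 library left out. At maturity it was 17.6, 6.86, and 8.94 to 12.6. Members with at most 3 S counts, 3, became 1 at 0 counts and 7 at 10 or fewer.

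At pea-size, 918 gene models were called between the genotypes: 576 at a log2 fold change of 2, 2009 with DESeq2, 610 with at least 10 counts in every library, 1747 from the libraries of that stage alone and 296 to 1741 with 1 library left out. Scaling by library totals changed the split from 425 higher in W and 493 higher in S to 322 and 568. At maturity, 1216 were called: 704, 2468 with DESeq2 (838 higher in W and 1630 in S, against 574 and 642), 330 from that stage's libraries alone (170 and 160) and 445 to 3528 with 1 library left out, the most without S maturity replicate 1. More were higher in W than in S at maturity from that stage's libraries alone, with the replicate block (479 and 405), and without W maturity replicate 2 (277 and 237), W maturity replicate 3 (272 and 173) or S maturity replicate 1 (1801 and 1727). Members called were 6 at pea-size and 5 at maturity of the 6 left with at least 10 counts in every library, where fewer were tested, and 9 at maturity from that stage's libraries alone. With 1 library left out they were 10 to 27 and 12 to 23, and DESeq2 called 27 and 27. The cause of these differences was not tested. The members' median ratios stayed above 1 under each alternative. The rule had asked for ratios of at least 4, so this follows from the choice. Leaving out a maturity library could not move the pea-size median, which stayed at 10.95. Leaving out a pea-size library likewise left the maturity median at 10.1. Of 165 alternatives to the main results, 121 were counted as similar to the main value. That count includes such fixed cases, and nothing is read from it.

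Same-numbered libraries were not alike in their deviations from the group means. Within a stage they correlated at -0.16 to 0.00339 across genotypes, and 0 of 12 correlated best with their own number. Across the stages of a genotype they correlated at -0.0478 to -0.00104 in W and at -0.123 to 0.0433 in S. These are not correlations of levels: in rank correlation of CPM, libraries of a stage reached 0.667 to 0.852 across genotypes. With a replicate block, 679 and 884 gene models and 15 and 14 members were called.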

Other observations

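The set with the genotypes exchanged, 98 gene models higher in S at both stages, had S/W ratios of 4.12 to 166 at pea-size with a median of 7.93 and of 4.05 to 143 at maturity with a median of 7.35. Its lowest S library was a median of 1.997 times its highest W library after adding 0.5 CPM, against 3.25 for the 27 gene models higher in W. Chosen without S maturity replicate 1, this set held 143 gene models. In log2(CPM + 0.5), that library was nearer to the mean of its own genotype for 79 of them (55.2%). In the other 11 libraries the share was 76.9% to 99.0%.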
